A study of Mus musculus with 7 samples.

Results

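Narrow H3K27me3 peaks inside gene bodies that were called in control epidermal progenitors and not in cells lacking Ring1a and Ring1b numbered 377 of the 3631 control peaks. The regions were chosen by peak width, by position and by the absence of a 2KO call: a control peak was taken when it was under 8000 bp wide, shared 0 bp with any peak of the Ring1a/b 2KO list, and lay in the body of a protein-coding gene more than 1 kb from both ends of every such gene. The cells were EpCAM+, Sca1+, α6-integrin high keratinocytes of the interfollicular epidermis, sorted from the back skin of mice at postnatal day 0. The groups were "Control" and "Ring1a/b 2KO" (2KO below), with 2 immunoprecipitation libraries and 1 list of called peaks each. The labels name no strain, no promoter that drives a deletion and no number of animals, and the titles of the 2KO libraries say H3K27me1 where their antibody field says H3K27me3. Not analysed here were the input of the control cells and the pair of "Eed cKO" libraries. The comparison asks which H3K27me3 regions are still called when both catalytic subunits of Polycomb repressive complex 1 are lost. The lists hold positions only, with no height, score or depth, so there is no error between replicates, no test between the genotypes, and no way to tell a lost mark from one under the calling threshold. Intervals below are 95% Wilson intervals that cover counting error only, and neighbouring peaks are not independent.

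H3K27me3 is written by Polycomb repressive complex 2. It is bound by forms of Polycomb repressive complex 1 that contain a Cbx protein. Ring1a (gene symbol Ring1) and Ring1b (Rnf2) are the alternative catalytic subunits of complex 1 and place ubiquitin on histone H2A, a mark that complex 2 can in turn recognise. In vertebrates the classical targets are CpG-rich promoters of developmental regulators. Marks inside a gene can lie over an alternative start, over the start of an antisense or nested non-coding gene, over an enhancer, or along a domain that spreads from a promoter.

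The sequences at start sites inside these regions are shown first, because they are where an annotated start and the mark coincide away from the gene ends. RefSeq lists starts for 79.9% of protein-coding genes in the table used (build GRCm38.p6, the same as mm10), each with 250 bases before and 50 bases after the start. Of the 377 regions, 77 held at least 1 listed start (20.4%, 16.7 to 24.8), and 61 held a start of the gene they lie in. Of these 61, 28 held every start listed for that gene, so none of its listed starts was at either end of the gene model. Such starts were not particular to these regions. Of the 204 narrow intragenic control peaks that a 2KO peak met, 27% (21.3 to 33.4) held a listed start. A start of the host lay in 24% of the 204 (18.7 to 30.3), beside 16.2% of the 377 (12.8 to 20.2). Among the 10 widest regions, Tlcd4, which encodes a TLC domain protein, and Stra6, which encodes the retinol uptake receptor, held listed starts. Cacna1d, which encodes an L-type calcium channel subunit, and Phf24, a PHD finger gene, were added after their values were seen, as the 2 host starts with the most CG dinucleotides. The sequences below run 5′ to 3′ on the strand of the gene, with each CG dinucleotide in capitals.
Tlcd4, chr3:121263118-121263417, minus strand: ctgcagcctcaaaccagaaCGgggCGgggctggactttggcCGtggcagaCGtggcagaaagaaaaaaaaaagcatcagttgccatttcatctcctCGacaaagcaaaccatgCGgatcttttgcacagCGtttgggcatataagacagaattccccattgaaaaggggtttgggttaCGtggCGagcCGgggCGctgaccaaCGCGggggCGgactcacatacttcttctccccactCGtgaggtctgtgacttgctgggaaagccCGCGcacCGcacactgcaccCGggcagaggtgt
Stra6, chr9:58129099-58129398, plus strand: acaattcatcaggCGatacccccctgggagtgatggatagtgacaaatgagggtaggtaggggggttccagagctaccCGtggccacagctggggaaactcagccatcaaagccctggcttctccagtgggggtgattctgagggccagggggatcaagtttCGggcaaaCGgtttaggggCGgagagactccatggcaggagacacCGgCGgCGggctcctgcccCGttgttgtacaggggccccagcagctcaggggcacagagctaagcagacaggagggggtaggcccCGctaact
Cacna1d, chr14:30353437-30353736, minus strand: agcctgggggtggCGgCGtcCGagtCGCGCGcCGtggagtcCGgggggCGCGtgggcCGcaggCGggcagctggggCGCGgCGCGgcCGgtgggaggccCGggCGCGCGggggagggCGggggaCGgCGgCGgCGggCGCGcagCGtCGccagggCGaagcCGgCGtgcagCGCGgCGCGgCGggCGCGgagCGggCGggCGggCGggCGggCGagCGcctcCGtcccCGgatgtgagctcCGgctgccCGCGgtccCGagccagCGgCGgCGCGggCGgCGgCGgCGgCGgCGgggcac
Phf24, chr4:42916993-42917292, plus strand: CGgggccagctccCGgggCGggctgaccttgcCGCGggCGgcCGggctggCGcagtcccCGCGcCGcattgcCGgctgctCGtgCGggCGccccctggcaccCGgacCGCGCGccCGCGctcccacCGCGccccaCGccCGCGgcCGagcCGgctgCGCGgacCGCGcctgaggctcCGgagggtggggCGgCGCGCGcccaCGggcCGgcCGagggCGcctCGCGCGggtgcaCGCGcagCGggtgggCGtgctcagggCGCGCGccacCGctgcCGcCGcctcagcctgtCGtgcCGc

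The Tlcd4 window held 19 CG dinucleotides, a count reached by 28.3% of all 32619 listed starts. The Stra6 window held 10, reached by 43.8%, and the other 3 listed Stra6 starts in the same region held 5 each. The Cacna1d window held 63 at a GC content of 87.3%, a count reached by 10 listed starts in all, and the Phf24 window held 56. The regions at host starts therefore ran from CG-poor to among the most CG-dense starts listed. Over the 75 different host starts inside these regions the median was 17 (quartiles 10 and 27.5), and 62.7% held 15 or more. Starts of protein-coding genes that lie away from gene ends anywhere in the genome had a median of 8 (n = 3881), with 34.2% at 15 or more. The 59 host starts inside narrow intragenic control peaks that a 2KO peak met had a median of 15, so the CG counts of both kinds of peak overlapped widely.

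**Figure D1:**
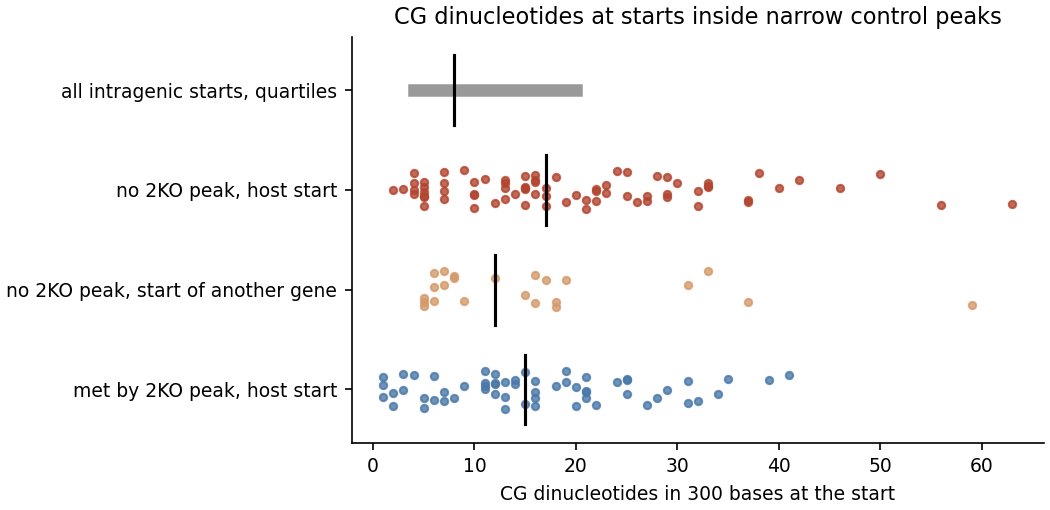
CG dinucleotides in the 300 bases at each listed start (x axis) inside narrow control peaks of gene bodies, as points by kind of start, with black bars at the medians. Host starts in peaks with no 2KO counterpart (median 17) and in peaks met by a 2KO peak (median 15) both lie above the median of 8 for all starts of protein-coding genes away from gene ends, whose quartiles the grey bar spans.

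Further starts are given by gene, each with the CG count of its window. The region at chr13:54947828-54951545 (3.72 kb) held the only listed start of Unc5a, which encodes a netrin receptor of axon guidance, with 37 CG dinucleotides. That at chr2:181036245-181042354 (6.11 kb) held the only listed start of Chrna4, a nicotinic acetylcholine receptor subunit gene, with 33. In Dab1, which encodes an adaptor of reelin signalling, the region at chr4:104364811-104371167 (6.36 kb) lay 373.7 kb from the nearest gene end and held a start with 46. The region at chr5:88884207-88888615 held a start of the bicarbonate transporter gene Slc4a4 with 50. Starts of other genes, without one of the host, lay in 16 regions. In Shank3, which encodes a postsynaptic scaffold, the 7.08 kb region held the start of the non-coding gene Gm15609 with 59. In Cdh23, a cadherin gene of hair cell tip links, it held the start of the non-coding gene Gm51803 with 31. In all, 48 regions overlapped a lncRNA gene (12.7%, 9.74 to 16.5), compared with 27 of the 204 peaks met by a 2KO peak (13.2%, 9.26 to 18.6).

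Mature microRNAs lay in 3 regions, and their sequences are given because they name RNAs other than the host that these peaks cover. Seeds, bases 2 to 8, are in capitals, and the 5 shown share no seed.
mmu-miR-199b-3p: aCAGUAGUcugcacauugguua
mmu-miR-3154: cAGAAGGGgagucgggagcgga
mmu-miR-6405: gUGGGAAGcagugggaagcagug
mmu-miR-7240-5p: uUGGAGAGgaccgccgucgga
mmu-miR-7240-3p: cGCCGUUGguccucuccaaca
The first and second lay under the 6.68 kb region of Dnm1 (chr2:32313002-32319680), on the strand opposite to this neuronal dynamin gene. The region of Dnm1 was the only control peak in that gene, which had no 2KO peak. The third lay in Pax2, at chr19:44808501-44808523, and the last 2 lay in the 2.34 kb region of the kinase gene Mast3 (chr8:70797887-70800229).

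The width limit and the distance to gene ends are part of how the regions were chosen and are described without a comparison. Widths ran from 550 to 7953 bp with a median of 3232 bp (quartiles 2118 and 4665), and together the regions covered 1334 kb of 24837 kb under all control peaks. The narrowest lay in Pcca (550 bp), Phka2 (643 bp) and Ebf4 (705 bp), and the widest in the nuclear receptor coactivator gene Ncoa2 (chr1:13229428-13237380, 7953 bp), the mitochondrial carrier gene Slc25a21 (chr12:56857138-56865065, 7928 bp) and the homeobox gene Meis1 (chr11:18906481-18914367, 7887 bp). Just over the width limit, and otherwise alike, were peaks in Bdnf (8002 bp), Begain (8029 bp) and Gucy1b2 (8081 bp). The median distance to the nearest gene end was 20.4 kb (quartiles 5.95 and 65.4 kb), and it was 8.56 kb when only peaks touching the end itself were left out. Within 5 kb of an end lay 23.3% of the regions, and within 10 kb 33.2%. The most distant region lay 498.4 kb from an end, in the neuronal adhesion gene Opcml (chr9:28422779-28426973). At the other side, regions in St8sia4, Gnb4 and Fat4 lay 1.005, 1.017 and 1.023 kb from a gene end, and control-only peaks at C1qtnf4 (0.998 kb), Zfp697 (0.998 kb) and Pi16 (0.99 kb) fell just inside the window.

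The place within the gene showed no single preferred part. Strand was known from the start table for 294 regions. Counted from the 5′ end of the host in steps of 20% of its length, 68, 56, 72, 52 and 46 regions lay in the successive parts. The last part held 15.6% (11.9 to 20.2) and the first 23.1% (18.7 to 28.3). Peaks met by a 2KO peak gave 22.4% in the first part and 11.5% in the last (n = 156).

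The regions lay in 311 genes, which is 1.44% of the 21631 protein-coding genes, and only 2 regions lay in more than 1 gene. The hosts had a median length of 123.4 kb, against 17.3 kb over all protein-coding genes, and 62.6% of the regions (57.6 to 67.3) lay in a gene longer than 100 kb. A region of given width fits inside a long gene more easily than inside a short one, so the like comparison is with the other narrow intragenic control peaks. Those met by a 2KO peak lay in hosts longer than 100 kb in 36.3% (30.0 to 43.1, n = 204) and were wider, with a median of 4115 bp. Of all 581 narrow intragenic control peaks, 64.9% had no 2KO base, beside 51.9% of the narrow control peaks at gene ends, 65.2% of those between genes, 55.1% of the intragenic control peaks of 8000 bp or more and 52.6% of all control peaks. The control list is the longer one (3631 against 2340 peaks). When it was cut to its 2340 widest peaks, with the 2KO list left whole, 138 regions were left. Since this contrast chose the regions, nothing is read from it.

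**Figure D2:**
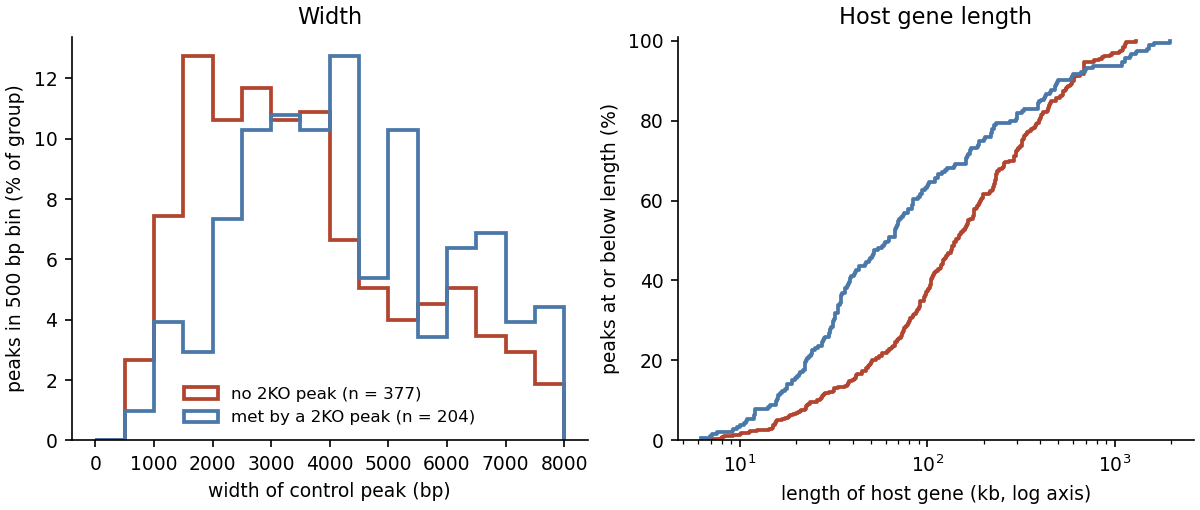
Left, width of narrow intragenic control peaks in bp (x axis) as the percentage of each group per 500 bp bin (y axis). Right, cumulative percentage of peaks (y axis) by length of the host gene in kb on a log axis. Peaks with no 2KO counterpart (red, n = 377) are narrower, with a median of 3232 against 4115 bp, and lie in longer genes, with a median host of 142.1 against 62.1 kb, than peaks met by a 2KO peak (blue, n = 204).

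The same share is given by host length and by width as a description, since the absence of a 2KO base and the width both chose the regions and a wider peak meets a 1 bp overlap more easily. In hosts under 50 kb, 73 of 166 narrow intragenic control peaks had no 2KO base (44.0%, 36.7 to 51.6). The share was 64.8% (55.3 to 73.2) for hosts of 50 to 100 kb, 78.6% (71.8 to 84.1) for 100 to 300 kb and 73.2% (65.4 to 79.8) for longer ones. By width it went from 84.3% (76.0 to 90.1) under 2000 bp to 53.2% (43.2 to 63.0) from 6000 bp up. Within each of the 5 width classes the median host of the control-only peaks was longer, at 109.7 to 227.3 kb, than that of the peaks met by a 2KO peak, at 38.1 to 83.2 kb. No trend is read from these shares of 1 pair of lists.

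**Figure D3:**
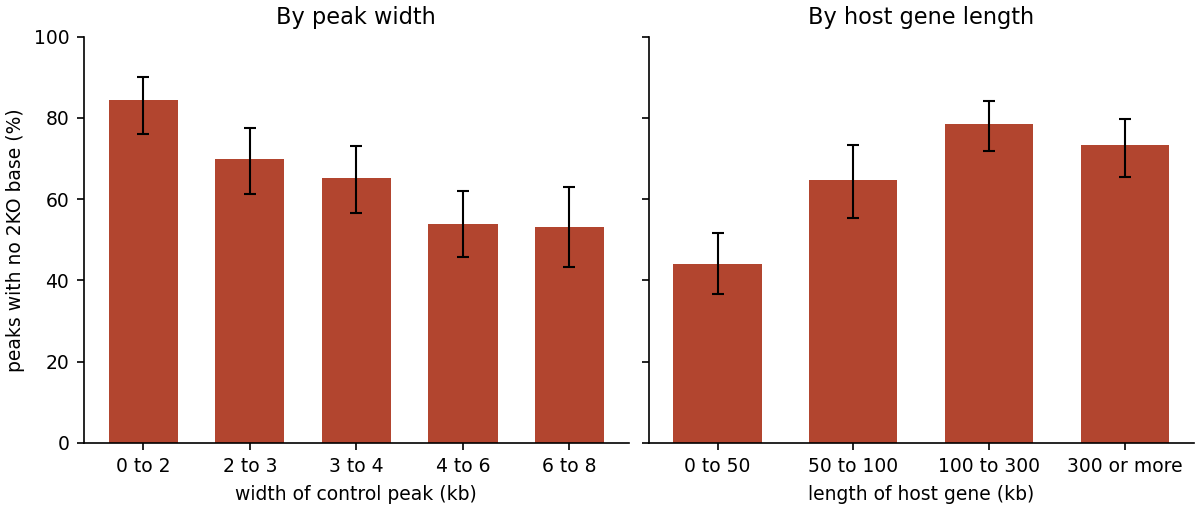
Percentage of narrow intragenic control peaks with no 2KO base (y axis) by width of the control peak in kb (left) and by length of the host gene in kb (right). Bars start at 0 and error bars are 95% Wilson intervals. The bars are a description of values that chose the regions, with 84.3% under 2 kb and 53.2% from 6 kb of width, and 44.0% in genes under 50 kb and 78.6% in genes of 100 to 300 kb.

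Most hosts held 1 region, and 42 held 2 or more, with 110 regions between them. Zfhx3, which encodes a large zinc finger and homeodomain transcription factor, held 11, the most of any gene. From 5′ to 3′ they measured 1.85, 3.15, 1.72, 3.64, 2.02, 2.61, 6.33, 7.28, 2.16, 3.62 and 2.79 kb and were spread over 306 kb of the 682.3 kb gene (chr8:108279311-108961636). The widest of them was chr8:108848554-108855836. They alternated with wider control peaks of up to 49.1 kb, so that 18 control peaks covered 183.6 kb of the gene. The 2KO list had 1 peak in Zfhx3, of 7.11 kb (chr8:108694415-108701519), which covered 28.0% of the 25.4 kb control peak around it. Neither end of Zfhx3 was marked in either list, so this domain was called wholly inside the gene.

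Other transcription factor genes held runs of regions beside wider control domains. In Pax2, a paired-box gene of kidney and eye development (chr19:44746601-44838269), the domain over the 5′ end measured 54.0 kb in the control list and 40.1 kb in the 2KO list. The regions of 1.60, 6.78 and 7.36 kb farther in had no 2KO peak, while the 8.04 kb control peak at the 3′ end lay wholly under a 10.3 kb 2KO peak. The third of these regions lay 1.11 kb from that 2KO peak, the third shortest such gap of all. In Dmrt1, a gene of testis development, regions of 7.34, 4.77 and 6.13 kb lay between control domains of 16.3 and 30.8 kb at the gene ends, and no 2KO peak overlapped the gene. A 3.37 kb 2KO peak lay under the 30.8 kb domain, in its part beyond the gene. Zfp608, a zinc finger gene, held 4 regions of 4.61 to 6.37 kb next to a 10.1 kb control peak, with no 2KO peak in the gene. Meis1 held 2, of 6.95 and 7.89 kb (chr11:18895620-18902566 and chr11:18906481-18914367), with none in the 2KO list.

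Genes of neurons and vessels held similar runs. Cntn1, which encodes a contactin of axons and myelinated fibres, kept a peak at its 5′ end (4.27 kb in the control list, 5.79 kb in the 2KO list), whereas regions of 3.32, 7.69, 6.24 and 2.07 kb in its 3′ part and a 14.1 kb control peak among them had no 2KO peak. Flt1, which encodes a receptor of vascular endothelial growth factor, kept its 5′ domain (15.9 and 14.1 kb) and held 3 regions of 3.20, 6.09 and 2.22 kb. In Shank3 (chr15:89493013-89560261) regions of 5.57, 1.45, 7.08 and 3.37 kb and a 3.97 kb control peak at the 3′ end all had no counterpart, and the first of them held the only listed Shank3 start, with 40 CG dinucleotides. In Slit3, a ligand of Robo receptors, 3 regions of 6.69, 5.45 and 6.68 kb lay between 298.4 and 321.2 kb from the 5′ end. Farther along, at 418.5 kb, a 6.96 kb control peak was covered to 99.0% by a 2KO peak of 7.06 kb (chr11:35539999-35547055).

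**Figure D4:**
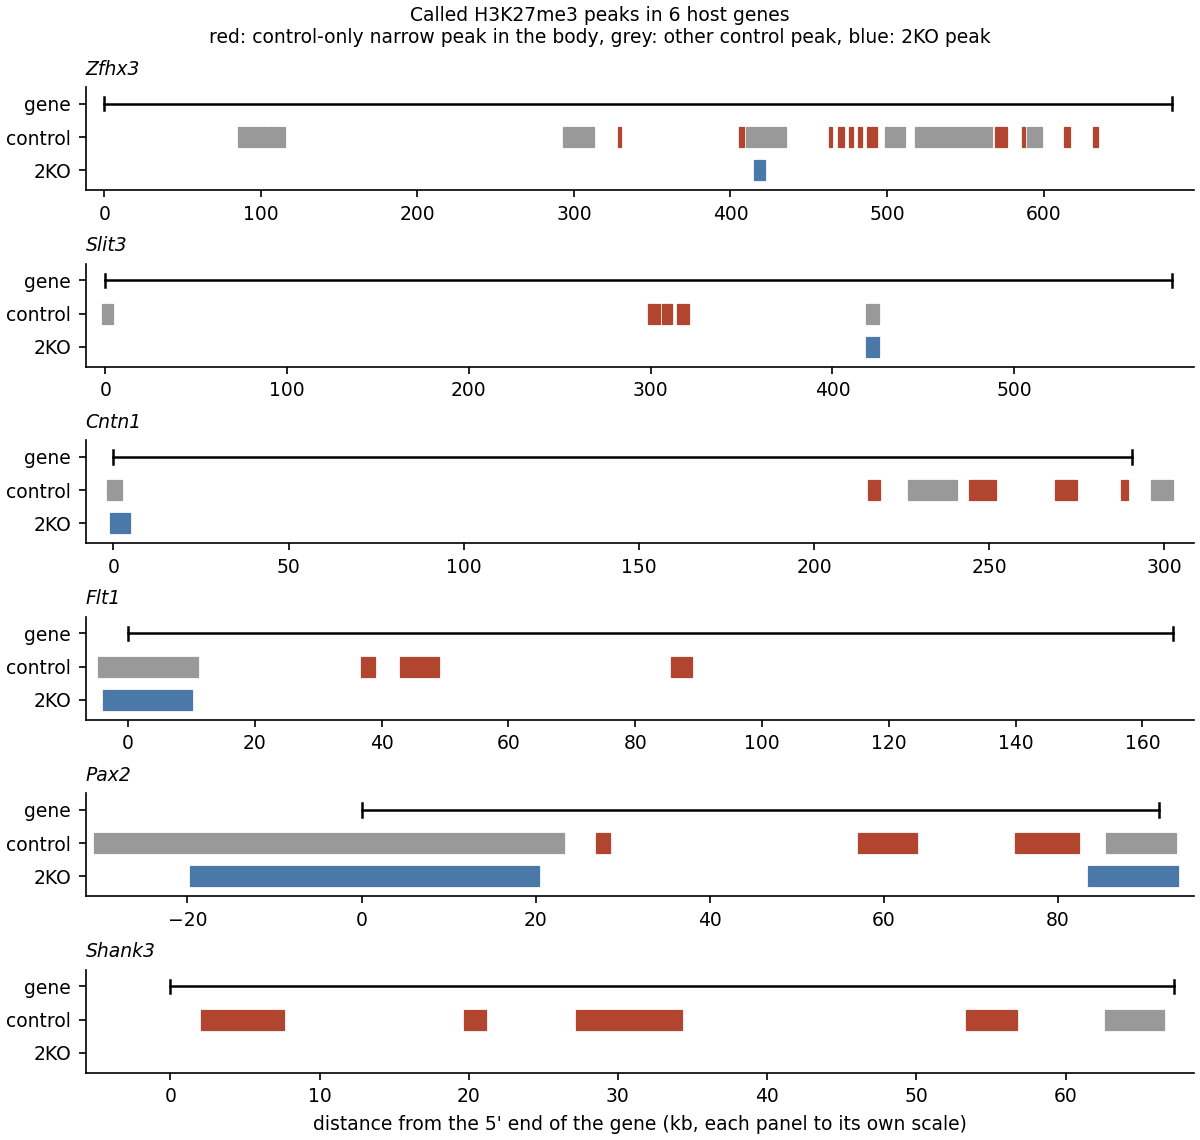
Called peaks in 6 host genes against the distance from the 5′ end of the gene in kb (x axis, own scale per panel), with rows for the gene, the control list and the 2KO list. Red blocks are the control-only narrow peaks, grey blocks other control peaks and blue blocks 2KO peaks. Zfhx3 shows 11 red blocks and 1 blue one, and Pax2, Cntn1 and Flt1 show blue blocks at the 5′ end and none over the red blocks.

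Some hosts are genes of other pathways that carry such runs as well as other control peaks. Skap1, which encodes an adaptor of T cell receptor signalling, held 5 regions of 7.47, 2.17, 4.94, 5.53 and 2.72 kb (chr11:96573768-96654291 in all). Its 9 control peaks covered 69.8 kb of the gene and its 3 2KO peaks 16.7 kb. Slc25a21 held regions of 7.93, 4.84 and 5.09 kb, with control peaks at both of its ends, of which the wider measured 43.7 kb and was covered to 54.1% by 2KO peaks. Cobl, an actin nucleator gene, held regions of 3.59, 5.12 and 5.23 kb, between 112.4 and 130.4 kb from its 5′ end. A 29.7 kb control peak at its 3′ end, from 215.6 kb on, also had no 2KO base.

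The choice of regions did not use other peaks at the ends of the host. Its 1 kb window does decide which peaks count as end marks. The peaks compared were also split by the 2KO list, so the shares are a description. Of the 311 hosts, 128 had another control peak at an end (41.2%, 35.8 to 46.7), compared with 10.1% of all protein-coding genes and 17.3% (16.3 to 18.4) of those over 50 kb. In the 2KO list 64 hosts were marked at an end (20.6%, 16.5 to 25.4), compared with 9.92% of genes over 50 kb. Counted by region, a host end carried another control peak for 44.6% of the regions (39.6 to 49.6) and for 40.2% of the narrow intragenic peaks met by a 2KO peak (33.7 to 47.0), and these intervals overlapped. A host end carried a 2KO peak for 21.2% (17.4 to 25.6) and 42.2% (35.6 to 49). In the second group the 2KO peak that met the region was itself counted where it reached a host end. The regions have no such peak by choice, so nothing is read from the difference between these 2KO shares. Of the 128 hosts marked at an end in control cells, 59 were also marked at an end in the 2KO list (46.1%, 37.7 to 54.7). The end was not required to be the same in both lists. Over all control-marked genes of more than 50 kb the figure was 51.5% (48.1 to 54.8, n = 857), inside the interval of the hosts. The remaining hosts included 178 with no end marked in either list. By region, 143 of 377 were the only called peak of either list in or at their longest host (37.9%, 33.2 to 42.9). Regions whose host was marked at an end in the 2KO list included those of Cacna1a (7.75 kb), Ebf3 (7.43 kb) and Ptprt (7.35 kb).

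The neighbouring control peaks are described next. Another control peak lay within 10 kb of 112 regions (29.7%, 25.3 to 34.5). This nearest peak had no 2KO base in 86 of the 112 (76.8%, 68.2 to 83.6). It was itself one of the 377 in 48 of the 112, and these lack a 2KO base by choice. Among the other 64 it was 38 (59.4%, 47.1 to 70.5), whose interval holds the 52.6% of all control peaks. The share was 58.3% (48.9 to 67.2) when the nearest control peak lay 10 to 100 kb away and 50.3% (42.6 to 58.0) when it lay farther, neighbours among the 377 included. For narrow intragenic peaks met by a 2KO peak, the nearest control peak within 10 kb had no 2KO base in 10 of 39 (25.6%, 14.6 to 41.1). Without neighbours among the 377 it was 5 of 34 (14.7%, 6.45 to 30.1). Neighbours that are themselves narrow intragenic peaks met by a 2KO peak hold a 2KO base by choice. They were kept in the 64 and in the 34, so nothing is read from the difference between these shares. The 2KO peaks themselves were mostly far from the regions, at a median of 214 kb (quartiles 57.0 and 773 kb). In 28 regions a 2KO peak lay within 10 kb, the nearest at 0.815 kb from the region in Mlc1, and 73 regions had none within 1000 kb.

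Read by gene group, developmental transcription factors held such regions most often of the 25 lists examined. Of 136 such genes 29 held 1 (21.3%, 15.3 to 28.9), beside 1.44% of all protein-coding genes, and of the 102 longer than 50 kb 28.4% did, beside 4.86% of all genes of that length. They included Ebf3, a factor of neural and mesodermal development (7.43 kb), Runx2, the factor of bone formation (chr17:44733117-44740263, 7.15 kb), Cux1 (6.24 kb), Casz1 (2 regions, up to 4.96 kb), Prdm16, a factor of brown fat and stem cells (2 regions, up to 4.13 kb), and Runx1, a factor of blood and hair follicle stem cells (2 regions of 3.56 and 4.41 kb). In Runx2, Runx1 and Casz1 neither end was marked in either list, but the wider Casz1 region lay 1.08 kb from a gene end, just outside the 1 kb window. Narrow intragenic peaks met by a 2KO peak lay in 7 of the 136 genes (5.15%), beside 0.874% of all protein-coding genes.

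The lists of neuronal, membrane and signalling genes are very unequal in length, so the share among genes over 50 kb is given too, to be read beside 4.86%. For peaks met by a 2KO peak, the share was 0.874% of all protein-coding genes and 2.08% of those over 50 kb. Of 90 synapse and neuron adhesion genes, which are very long (median 551 kb), 12 held a region (13.3%, 7.79 to 21.9, and 14.6% over 50 kb), among them Cntn1, Ptprt, Shank3 and Adgrb1. Here peaks met by a 2KO peak were at least as common, in 17 genes (18.9%). Of 71 axon guidance genes 8 held a region (11.3%, 5.82 to 20.7, and 22.2% over 50 kb) and 2 a peak met by a 2KO peak, and Slit2 (5.64 kb), Epha6 (4.28 kb) and Unc5a were among the former. Of 74 sodium, calcium and HCN channel genes 6 held a region (8.11%, and 13.0% over 50 kb), with Cacna1a (chr8:84411376-84419127) and Cacna1d (chr14:30349871-30355973, 6.10 kb) the widest. Over 50 kb, potassium channel genes (5 of 93 in all, Kcnj3 with 4.21 kb) were at 5.26% and neurotransmitter receptor genes (3 of 105, Grm5 with 5.32 kb) at 4.0%, both near the share of all genes of that length. Peaks met by a 2KO peak lay in 7 genes of each list. Of 43 cadherin genes 3 did (Cdh22, Cdh23 and Fat4), as did 7 of 122 GTPase regulators (Rap1gap2 with 6.41 kb) and 6 of 91 phosphodiesterase and kinase genes (Pde1c with 6.08 kb).

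Large families near or below the share of all genes were the solute carriers (6 of 375, 1.60%), the Zfp zinc finger genes (5 of 397, 1.26%) and the extracellular matrix and ADAMTS genes (1 of 133, 0.752%). Among solute carriers over 50 kb the share was 4.95% and among such Zfp genes 6.82%, beside 4.86% of all genes of that length. Of 44 collagen genes 2 held a region (4.55%, 1.26 to 15.1), Col1a1 (chr11:94937639-94940752) and Col8a2 (1.89 kb), and none of the 29 collagen genes over 50 kb did (0 to 11.7%). Of 179 genes of the Wnt, Bmp, Tgf-beta, Fgf, Hedgehog and Notch pathways 4 did: Tgfb2 (2.72 kb), Fgf5 (2.06 kb), Ror2 (1.36 kb) and Bmp4 (1.34 kb).

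**Figure D5:**
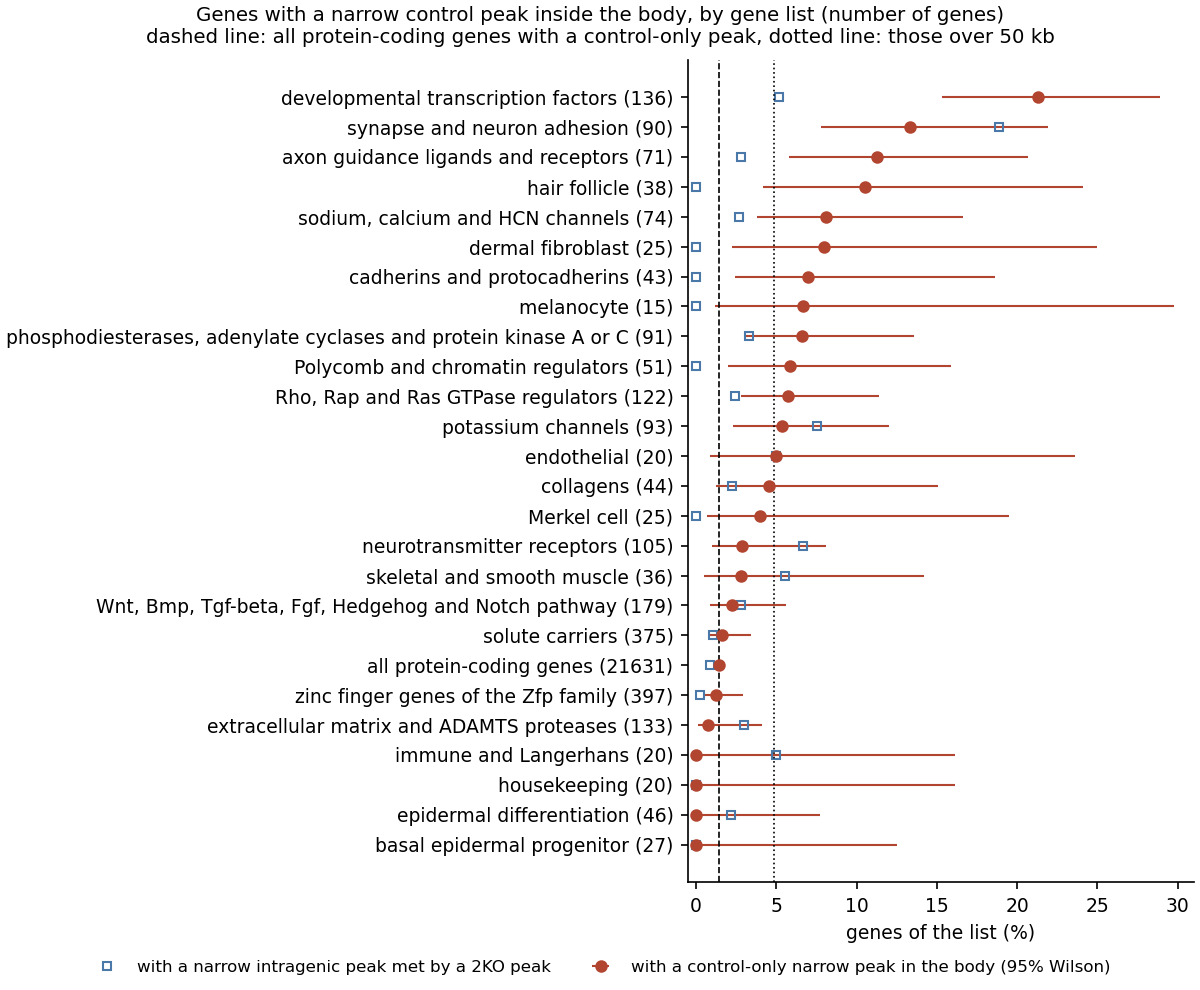
Percentage of the genes of each list (x axis) that held a control-only narrow peak in the body (red points with 95% Wilson intervals) or one met by a 2KO peak (blue squares), with the number of genes in brackets. Developmental transcription factors lead at 21.3%, and the lines mark 1.44% of all protein-coding genes and 4.86% of those over 50 kb.

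The lists of skin cells gave different counts. None of 27 basal progenitor genes (0 to 12.5%), among them Krt5, Krt14, Trp63, Itga6, Epcam and Ly6a, none of 46 epidermal differentiation genes (0 to 7.71%) and none of 20 housekeeping genes held 1, and all of these intervals include the 1.44% of all genes. Of 38 hair follicle genes 4 did (10.5%, 4.17 to 24.1): Cux1 at chr5:136560053-136566293, the zinc finger gene Trps1 (chr15:50867781-50873704, 5.92 kb), Runx1 and Fgf5. Of the 14 over 50 kb it was 21.4% (7.57 to 47.6), beside 4.86% of all genes of that length. Cux1, Trps1 and Runx1 were also counted among the developmental transcription factors. The Cux1 region lay 1.30 kb from a gene end, held the only listed Cux1 start with 25 CG dinucleotides, and was 1.43 kb from a wide control domain. Of 25 Merkel cell genes only Piezo2, the mechanosensitive channel gene, held 1 (3.09 kb). Among cells a sort could also hold, the counts were 2 of 25 for dermal fibroblasts (Ebf2 and Col1a1), 1 of 15 for melanocytes (Pax3, 3.92 kb), 1 of 20 for endothelium (Flt1), 0 of 20 for immune cells and 1 of 36 for muscle (Ryr1, 2 regions). Peaks give no expression level, so the sorted cell type itself was not checked. Of 51 Polycomb and chromatin genes 3 held a region (5.88%, 2.02 to 15.9, and 11.1% over 50 kb, 3.85 to 28.1). They were Chd7 (3.77 kb), Kdm2b (2.22 kb), which encodes the CpG-binding subunit of a variant complex 1, and Cbx7 (0.790 kb). The Chd7 region lay 1.21 kb from a gene end and 1.72 kb from another control peak. Lists this short leave wide intervals.

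The X chromosome carried 18 of the 377 regions, out of 20 narrow intragenic control peaks there (90.0% with no 2KO base). On the autosomes this share ranged from 50.0% on chromosome 6 to 88.9% on chromosome 3. Over all control peaks it was 71.4% on the X chromosome, against 42.5 to 67.3% on single autosomes. The regions on the X chromosome were narrow. The widest lay in Mid1 (4.09 kb). The 4 regions farthest from any 2KO peak all lay on this chromosome, in Mid1 (2 regions), Arhgap6 and Chst7. The sex of the animals is not given in the sources used here.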

How the data were processed

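The submitters' processing notes name Bowtie2 2.3.3.1, SAMtools 1.9 and build mm10. What the authors deposited is 1 file of peak positions (chromosome, start, end) for each genotype with 2 libraries. Not given in the sources used here are the caller, its threshold, the use of input and any pooling. Coordinates are printed 1-based, taking the deposited starts as 0-based. Gene bodies came from RefSeq GRCm38.p6 (21631 protein-coding genes of the autosomes and X chromosome), without exons. Strand and internal starts came from its promoter table. A shared peak needed 1 bp. The overlap and placement code was tested on simulated lists. Computation used Python 3.11.15, numpy 2.4.6, pandas 2.3.3, scipy 1.17.1 and matplotlib 3.10.9.

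Members, rules and the 25 gene lists (4 symbols missing from the table) were chosen with earlier results of these data known. Named were the 10 widest, the 10 genes with most members, up to 4 genes per list, the extremes of distance to gene ends and 2KO peaks, the cases at each limit, and up to 5 hosts with a 2KO-marked end. The narrowest regions, Phf24, Mast3 and Dnm1, and further genes of the transcription factor and hair follicle lists were named after their values were seen, as were the non-coding starts. Some genes within this rule are not reported here. Promoters were printed only where the start lay in a member. Alternatives changed width, window, distance, list size, gene set, merging and overlap.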

Additional observations from a re-analysis of the deposited data

How the results depend on the processing

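No paired analysis was possible because only 1 list stands for each genotype, which also leaves no replicate to omit. Of 75 recomputed values of the 5 main results, 58 stayed within 1.5 times the count or inside the counting interval. The number of regions was 377, in 311 genes. It became 138 in 113 genes with only the control list cut, to as many of its widest peaks as the 2KO list holds. With control peaks of at least 3000 bp it became 207 in 167 genes. The share with no 2KO base (64.9%) was then 53.9 and 57.7%, and it was 50.3% when no 2KO peak was allowed within 50 kb. The median distance to a gene end (20.4 kb) was 8.56, 28.3 and 36.0 kb with gene ends extended by 0, 2 and 5 kb, a direct result of the window. The share of regions in genes with another control peak at an end (44.6%) was 29.9, 50 and 58.0% with these windows. It was 37.7% with no 2KO peak within 50 kb, 51.2% with control peaks of at least 3000 bp, 39.2% after merging within 3 kb, and 51.4% without the 120 regions that had a listed start within 1 kb, an alternative added after the data were seen. The other causes were not tested. Depth and height are not held in the lists, so the precision of a missing call is unknown.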

Other observations

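The following genes were picked after their values were seen and are given as values only. Imprinted genes appeared among the hosts. The region in Mest (chr6:30735589-30739225, 3.64 kb) held listed starts of that gene with 17 CG dinucleotides, and the region at chr1:63208993-63211211 (2.22 kb) lay in both Zdbf2 and Gpr1 and held a Gpr1 start with 2. Steroid and orphan nuclear receptor genes were hosts as well. Esr1, the oestrogen receptor gene, held a region of 2.83 kb (chr10:4710237-4713069) with no other control peak within 3153 kb. Esrrg held a region of 2.88 kb over listed starts of the gene and of the non-coding gene Gm36388, the latter with 37 CG dinucleotides. The circadian clock gene Bmal1, listed as Arntl, held 2 regions of 6.08 and 6.07 kb in a gene with no 2KO peak.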
